A study of Homo sapiens with 3 samples.

Results

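The mitochondrial genome of human cells encodes a small part of the respiratory chain, and its messages are described here in Ishikawa, an established cell line from a human endometrial adenocarcinoma. The genes were taken by position: every row of the deposited table on chromosome MT, all with names starting with MT-. This gave 13 of 35713 rows, and all 13 are protein genes. The 2 rRNA and 22 tRNA genes that GENCODE 29 places on this chromosome are not analysed here. In 2 libraries, CLDN6 replicates 1 and 2, the cells carried CLDN6 from a lentiviral vector made in HEK293T cells, and the labels call this overexpression transient. The remaining library, WT, came from untreated Ishikawa cells grown in the same medium. The CLDN6 protein, claudin-6, sits in the cell membrane at tight junctions. The series asks how its adhesion signal acts through estrogen receptor alpha. None of the 3 libraries held an empty vector, so the vector and its delivery cannot be told apart from CLDN6.

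Mitochondrial DNA is a small circle present in many copies per cell. Its strands are transcribed as long precursors by the polymerase POLRMT with the factors TFAM and TFB2M. tRNA sequences lie between most of the protein and rRNA genes, and their excision frees the single messages, most of which then receive short poly(A) tails. Each of the 13 proteins is a membrane subunit of respiratory complex I, III, IV or V, built together with subunits made from nuclear genes. Complex II has none. All but MT-ND6 are read from one strand, so their unequal levels are commonly linked to how long each message lasts after processing.

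The layout of the genes limits what a row can measure, so the stretches concerned are printed first, from the GENCODE 29 transcripts on GRCh38. All 13 transcripts had the length of their row, and all 13 rows had the start and end given by GENCODE. MT-ATP8 and MT-ATP6, subunits of the ATP synthase read from a shared message, have 46 bases in common at chrM:8527-8572, in capitals below. This is 22.2% of the MT-ATP8 row.
MT-ATP8, whole gene, chrM:8366-8572, plus strand: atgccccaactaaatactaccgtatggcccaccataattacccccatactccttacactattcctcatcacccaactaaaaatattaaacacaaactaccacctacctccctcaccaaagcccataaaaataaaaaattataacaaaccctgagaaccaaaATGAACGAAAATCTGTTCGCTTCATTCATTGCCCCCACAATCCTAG
MT-ATP6, start, chrM:8527-8616, plus strand: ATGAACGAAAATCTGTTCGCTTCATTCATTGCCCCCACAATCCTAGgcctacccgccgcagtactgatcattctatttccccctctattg
MT-ND4L and MT-ND4, subunits of complex I, also share a message, and their rows share the 7 bases at chrM:10760-10766.
MT-ND4L, end, chrM:10707-10766, plus strand: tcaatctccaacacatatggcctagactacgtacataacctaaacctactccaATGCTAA
MT-ND4, start, chrM:10760-10819, plus strand: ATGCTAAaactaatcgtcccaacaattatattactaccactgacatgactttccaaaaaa
MT-ATP6 and MT-CO3 share 1 base. A read over a shared base belongs to both rows, and how such reads were counted is not given in the sources used here.

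Shown next are the ends of the genes whose values stand furthest from the other members, 60 bases each, 5′ to 3′ on the coding strand, with the stop codon or the part of it that the DNA holds in capitals.
MT-CO2, chrM:8210-8269, plus strand: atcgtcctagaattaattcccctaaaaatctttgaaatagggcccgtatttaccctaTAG
MT-ND3, chrM:10345-10404, plus strand: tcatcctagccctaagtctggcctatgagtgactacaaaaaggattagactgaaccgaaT
MT-ND5, chrM:14089-14148, plus strand: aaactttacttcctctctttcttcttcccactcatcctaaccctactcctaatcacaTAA
MT-ND6, chrM:14149-14208, minus strand: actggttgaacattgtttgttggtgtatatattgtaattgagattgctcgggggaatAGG
MT-CYB, chrM:15828-15887, plus strand: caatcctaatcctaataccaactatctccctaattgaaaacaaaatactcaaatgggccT
In 6 of 13 genes, MT-ND3 and MT-CYB among them, the DNA holds only T or TA of the stop codon, and the poly(A) tail supplies the rest. MT-ND5 ends at base 14148 and MT-ND6, on the opposite strand, ends at base 14149, so these genes meet tail to tail. MT-ND6 is also set apart by its bases, with 35.6% G and 7.05% C, against 6.28% to 16.2% G among the other members. The strand setting of the count is not given in the sources used here, so reads of either strand over the MT-ND6 row cannot be told apart. In GENCODE 29, 394 nuclear pseudogenes copy these protein genes and are not analysed here, so the split of reads between a gene and its nuclear copies is uncertain.

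Values are given in the order CLDN6 replicate 1, CLDN6 replicate 2 and WT throughout, and the libraries held 71088869, 65755118 and 67843384 reads. Levels are RPM, the reads of a row per 1000000 reads of the library, scaled by the authors, and between genes they are compared only as RPM per kb of gene length. Changes are differences of log2(RPM + 1), which makes those of low genes look smaller. CLDN6, the gene added, was at 354, 413 and 0.236 RPM, as the labels give it. All 10 epithelial markers of the endometrium were found, from 3.35 to 3803 RPM. Of 8 stromal markers, 2 reached 1 RPM in any library, COL1A1 at 16.3, 48.6 and 20.8 RPM and THY1 at 2.77, 1.78 and 2.24 RPM. VIM had 0 reads in both CLDN6 libraries and 9 in WT. Of 7 immune markers 3 reached 1 RPM, CD74 being highest at 14.8, 2.80 and 21.3 RPM. Of 5 endothelial markers 1 did, VWF at 16.3, 12.5 and 9.99 RPM. Of 6 HEK293T markers, LIN28B, NEFL, NEFM and GATA3 had 0 reads in all 3 libraries. The others were found, ZIC2 at 66.9, 29.8 and 62.7 RPM and HOXA9 at 3.15, 1.48 and 2.83 RPM. Each column name starts with ECC-1, a name found in no label, where the labels name Ishikawa. The sources used here do not explain this difference, so the name of the cells rests on the labels. Nothing in the labels says that separate cultures were used, so a p-value here measures the spread between libraries alone, and that spread may be technical.

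The 13 genes together took 1274920, 921615 and 1072550 reads. These were 2.63% (95% exact binomial interval 2.629 to 2.638), 2.06% (2.053 to 2.061) and 2.32% (2.314 to 2.322) of the reads in listed genes. WT thus lay between the CLDN6 libraries, and the CLDN6 libraries lay further from each other than either did from WT. The intervals cover counting error only, since PCR copies are not independent molecules. The smallest count of any member in any library was 6923 reads, with a 95% Poisson interval of 6761 to 7088. The upper limit lay 2.38% above that count, if reads are taken as independent. With 2 libraries against 1, an exact permutation test of a single value cannot give a one-sided p below 0.333, so none was used. In these bulk samples, fewer mitochondria or genome copies per cell and less RNA per copy cannot be told apart.

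Per kb of length, the messages of complex IV, cytochrome c oxidase, led the order. MT-CO2 was at 3802, 5022 and 3889 RPM per kb, MT-CO1, which carries the oxygen-reducing centre, at 3573, 2510 and 3004, and MT-CO3 at 1938, 1837 and 1907. These genes ranked 1, 2 and 3 of the 13 in every library, and their ranges over the 3 libraries did not overlap. Among all 34884 rows with a GENCODE transcript, ranked by RPM per kb of the longest one, MT-CO2 stood at rank 1, 2 and 1, and MT-CO1 at rank 2, 8 and 4.

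A middle tier held MT-ND4 at 1791, 1185 and 1643 RPM per kb, MT-ATP8 at 1720, 1152 and 1499, MT-ND4L at 1523, 1109 and 1424, and MT-ATP6 at 1507, 1015 and 1330. The ranges of each of these and the next in order overlapped, but MT-ND4 stayed below MT-CO3 and MT-ATP6 above MT-ND1 in every library. The tier thus held the gene pairs that share a message.

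The lowest tier held 6 genes, of which 5 encode complex I subunits. MT-ND1 was at 838, 609 and 755 RPM per kb, MT-ND2 at 717, 533 and 567, MT-ND3 at 491, 535 and 503, and MT-ND5 at 694, 307 and 475. MT-CYB, the sole mitochondrial subunit of complex III, was at 697, 345 and 540 RPM per kb. MT-ND6 was lowest in every library, at 443, 201 and 295. Ranges of neighbours in the order overlapped throughout this tier. The highest member exceeded the lowest 8.58-fold in CLDN6 replicate 1, 25.0-fold in CLDN6 replicate 2 and 13.2-fold in WT, so the order kept its ends while the span between them differed among the libraries.

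Against WT, 0 of 13 genes passed the test (limma on log2(RPM + 1), Benjamini-Hochberg over 14509 rows), where 0.00689% of all rows passed, CLDN6 alone. At an unadjusted p under 0.05 there were 0 of 13, against 0.0276% of all rows. Limma-voom on recovered reads called 0 of 13 too, but it called 0 of all 14509 rows. It thus missed CLDN6 itself, and its result says little about the members. All 13 passed the filter on low values. In both CLDN6 libraries, 0 of 13 reached 2-fold above WT (0.0345% of all rows) and 0 of 13 reached 2-fold below (0.193%). The fitted log2 changes ran from -0.17 for MT-ND4 to 0.17 for MT-CO2, each with adjusted p = 0.99996 (limma). Their standard errors were 0.92 to 1.14, and the 95% interval for MT-CO2 ran from -1.96 to 2.30, which spans changes of several fold in either direction. The fit drew these errors almost wholly from a variance trend over all rows, with next to no weight on each gene's own values. MT-CO3, with its CLDN6 libraries 0.077 apart in log2, still had a standard error of 1.02.

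At the deposited scaling, the CLDN6 libraries stood on opposite sides of WT for every member. WT lay between them in 13 of 13 genes, against 75.9% of all rows, so 0 of 13 were above WT in both (9.06% of all rows) and 0 below in both (15.1%). In 11 genes replicate 1 was above and replicate 2 below WT (53.8% of all rows), and in MT-CO2 and MT-ND3 the reverse held (22.0%). This split rests on the scaling. Under a trimmed-mean (TMM-like) or a median-ratio (RLE) scaling, 3 genes, MT-ND5, MT-ND6 and MT-CYB, had replicate 1 above and replicate 2 below WT (34.3% and 34.1% of all rows under the respective scaling), 9 had the reverse (40.9% and 41.1%), and MT-ND2 was above WT in both (12.0% and 12.9%). The median of the 13 genes was 0.18 in replicate 1 and -0.36 in replicate 2, where the median of all 14509 rows was 0.20 and -0.35. Relative to all rows, the median member therefore lay at -0.02 and -0.01. With the all-row median of each CLDN6 library set to that of WT, an alternative added after the data were seen, 2 genes lay above WT in both CLDN6 libraries (12.9% of all rows), 4 below in both (12.9%), 3 had replicate 1 above and replicate 2 below (37.1%) and 4 the reverse (37.1%).

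At the deposited scaling, MT-ND5, MT-ND6 and MT-CYB, which lie side by side at the end of the gene order, differed most between the CLDN6 libraries. MT-ND5, a proton-pumping subunit of complex I, was at 1257, 556 and 861 RPM. MT-ND6, the complex I subunit on the opposite strand, was at 233, 105 and 155 RPM. MT-CYB, cytochrome b, was at 795, 393 and 616 RPM. All 3 were highest in replicate 1 and lowest in replicate 2, which were 2.26-fold, 2.21-fold and 2.02-fold apart. No other member reached a 2-fold difference between the CLDN6 libraries, which gives 3 of 13 against 43.4% of all rows. Replicate 1 was the higher in all 3, where 36.2% of all rows were 2-fold or more higher in replicate 1 than in replicate 2. The genes that differed most changed with the scaling. Under TMM-like scaling, MT-CO2 (-1.18), MT-ND3 (-0.90) and MT-CO3 (-0.70) differed most on the log2 scale, replicate 1 being the lower, while MT-ND5, MT-ND6 and MT-CYB differed by 0.40, 0.37 and 0.24. RLE scaling gave the same leading 3 genes, and under both MT-CO2 was the single member 2-fold or more apart, 1 of 13 (42.0% and 42.2% of all rows). With the all-row medians aligned 0 of 13 were (39.4%), and the largest differences were -0.95 for MT-CO2, -0.67 for MT-ND3 and 0.63 for MT-ND5.

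MT-CO2, the subunit that takes electrons from cytochrome c, stood in the reverse order at the deposited scaling. It was at 2601, 3435 and 2660 RPM, so that replicate 1 was 0.978 times WT and replicate 2 was 1.29 times WT. Under TMM-like and RLE scaling MT-CO2 kept this order, but there 9 of the 13 genes had it. Under quantile normalization its log2 changes in replicates 1 and 2 were 0.20 and -0.03. With a fitted trend in GC content, length and mean level removed they were 0.45 and -0.24. The reverse order of MT-CO2 thus rests on the scaling. MT-ND3, a small subunit of complex I, was at 170, 185 and 174 RPM, and its 3 values lay close together. MT-CO3 was at 1519, 1440 and 1495 RPM with replicate 1 at 1.05 times replicate 2, the smallest difference of the 13 in RPM but the third largest under TMM-like and RLE scaling.

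The other members kept to a narrower band. MT-CO1 was at 5509, 3871 and 4632 RPM, MT-ND4 at 2468, 1633 and 2265, MT-ATP6 at 1026, 691 and 906, and MT-ATP8 at 356, 239 and 310. MT-ND4L was at 452, 329 and 423 RPM, MT-ND1 at 801, 582 and 722, and MT-ND2 at 747, 555 and 591. In these 7 genes replicate 1 exceeded replicate 2 by 1.34-fold for MT-ND2 to 1.51-fold for MT-ND4.

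A share of the reads of the 13 genes does not depend on how a library is scaled, and the makeup of the mitochondrial reads differed among the libraries. MT-CO2 took 14.5%, 24.5% and 16.8% of them, and MT-CO1 30.7%, 27.6% and 29.3%. MT-ND5 took 7.01%, 3.97% and 5.45%, MT-CYB 4.43%, 2.81% and 3.90%, and MT-ND6 1.30%, 0.751% and 0.978%. For MT-ND3 the shares were 0.947%, 1.32% and 1.10%, and for MT-CO3 8.47%, 10.3% and 9.46%. By complex, the 3 genes of complex IV took 53.7%, 62.4% and 55.6%, the 7 genes of complex I 34.2%, 28.2% and 32.8%, the 2 genes of complex V 7.71%, 6.63% and 7.69%, and MT-CYB of complex III the rest. In each of these shares WT lay between the CLDN6 libraries, for complex V by a small margin. In the share of MT-ND4, at 13.8%, 11.7% and 14.3%, WT was highest instead, as it was for MT-ND1 (4.47%, 4.16% and 4.57%), MT-ND4L (2.52%, 2.35% and 2.68%) and, by a small margin, MT-ATP6 (5.72%, 4.93% and 5.73%). WT was lowest for MT-ND2, at 4.16%, 3.96% and 3.74%.

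Ratios between members within a library are given for 11 pairs, which were chosen after their values were seen. MT-ATP8 had 0.347, 0.345 and 0.343 reads per read of MT-ATP6, with which it shares its message and the 46 bases printed above. The 95% counting intervals of these ratios overlapped, and the highest was 1.01-fold the lowest. MT-ND4L had 0.183, 0.202 and 0.187 reads per read of MT-ND4, a spread of 1.10-fold. MT-ND6 had 0.185, 0.189 and 0.180 reads per read of MT-ND5, a spread of 1.05-fold. At the deposited scaling both genes differed more than 2-fold between the CLDN6 libraries. They lie on opposite strands, but reads of either strand over the MT-ND6 row cannot be told apart. This ratio therefore need not compare separate messages. Against MT-CYB, its neighbour on the other side, MT-ND6 had ratios of 0.293, 0.268 and 0.251, a spread of 1.17-fold.

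MT-CO2 had 0.472, 0.887 and 0.574 reads per read of MT-CO1, a spread of 1.88-fold with counting intervals that did not overlap. MT-ND3 had 0.0688, 0.113 and 0.0769 reads per read of MT-ND4, a spread of 1.65-fold, and MT-ND5 had 0.509, 0.341 and 0.380, a spread of 1.50-fold. In each of these pairs WT lay between the CLDN6 libraries. The ratio of MT-ND2 to MT-ND1 was 0.932, 0.953 and 0.819, with counting intervals of 0.921 to 0.943, 0.940 to 0.967 and 0.808 to 0.830 and a spread of 1.16-fold. Both CLDN6 libraries were above WT with intervals apart from that of WT here and in the ratio of MT-ND6 to MT-CYB, whose intervals were 0.288 to 0.298, 0.261 to 0.275 and 0.246 to 0.256. WT has no replicate, so neither difference could be tested against the spread between WT libraries.

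Across the 13 genes, the log2 difference of replicate 1 from replicate 2 had a Spearman correlation of 0.59 with the order on the genome, 0.33 with gene length, -0.06 with GC content and -0.47 with the mean level per kb. These describe 13 points from the same 2 libraries, and genes of a shared precursor are not independent. Over all genes, differences between the libraries may also follow GC content, transcript length and mean level, whose separate parts were not measured. After a fitted trend with GC content, length and mean level was removed in each library, the median of the 13 genes was 0.61 in replicate 1 and -0.79 in replicate 2, and all 13 had replicate 1 above and replicate 2 below WT (59.2% of all rows). The CLDN6 libraries then differed 2-fold or more in 11 of 13 genes, all but MT-CO2 and MT-ND3 (28.3% of all rows). When the library medians were also aligned, an alternative chosen after seeing the data, the 13 genes had medians of 0.42 and -0.41, 4 of 13 were at least 2-fold apart (15.9% of all rows), and MT-CO2 and MT-ND3 lay above WT in both (21.0%).

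Among the nuclear subunits of the same complexes, replicate 1 was more often the lower. Of 76 nuclear genes tested for complexes I, III, IV and V, 46 had replicate 1 below and replicate 2 above WT (22.0% of all rows) and 8 had replicate 1 above and replicate 2 below (53.8%), where the mitochondrial genes had 2 and 11 of 13. Under TMM-like and RLE scaling 60 of the 76 had replicate 1 below and replicate 2 above (40.9% and 41.1% of all rows). So did 9 of the 13 mitochondrial genes, so the opposite order was not seen there. Nor was it with the trend removed alone, where 29 of the 76 and all 13 had replicate 1 above and replicate 2 below (59.2%). Quantile normalization kept it, with 51 of the 76 below then above WT (5305 of 14509 rows) and 12 of the 13 the reverse (5081). So did trend removal with medians aligned, with 40 of the 76 (4433 of 14372 rows) and 11 of the 13 the reverse (4217). With the all-row medians aligned, 57 of the 76 and 4 of the 13 had replicate 1 below and replicate 2 above (37.1% of all rows). Under TMM-like scaling the medians were -0.49 and 0.87 for the 76 genes and -0.12 and 0.12 for the 13. By list, at the deposited scaling, 22 of 37 nuclear genes of complex I, 6 of 9 of complex III, 7 of 11 of complex IV and 11 of 19 of complex V had replicate 1 below and replicate 2 above (22.0% of all rows). The complex V list was written with old and new symbols for the same genes. Of the 76 genes, 0 passed the test (limma), 0 had an unadjusted p under 0.05, and limma-voom called 0 of all rows. UQCRC1, a core subunit of complex III, was at 143, 383 and 270 RPM, COX4I1 of complex IV at 165, 337 and 239, NDUFA11 of complex I at 100.1, 308 and 194, and ATP5B, a catalytic subunit of the ATP synthase, at 1112, 2129 and 1618. COX7B, at 46.1, 47.6 and 20.6 RPM, was the only gene of the nuclear lists to reach 2-fold from WT in each CLDN6 library at the deposited scaling. Of all rows, 0.0345% did so above WT and 0.193% below. COX7B is among the genes that did not pass the test, and its change under other scalings is not given here.

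Summed over complex IV, mitochondrial rows had 10.1, 5.95 and 8.12 times the RPM of nuclear rows. The ratios were 3.75, 1.49 and 2.47 for complex I, 1.17, 0.309 and 0.683 for complex III, and 0.523, 0.218 and 0.369 for complex V. In all 4 complexes the ratio was highest in replicate 1 and lowest in replicate 2. A ratio within a library is free of its scaling, but it may carry a trend with GC content, length or level. After removal of the fitted trend the medians of the nuclear lists were 0.10 and -0.16 for complex I, 0.15 and -0.07 for complex III, 0.31 and 0.00 for complex IV, and 0.06 and 0.03 for complex V in replicates 1 and 2. The 76 nuclear genes together went from -0.20 and 0.40 to 0.12 and -0.08. The 13 mitochondrial genes went from 0.18 and -0.36 to 0.61 and -0.79. Before and after, the mitochondrial median was above the nuclear one in replicate 1 and below it in replicate 2. The difference between mitochondrial and nuclear genes was not tested.

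Of 53 nuclear genes tested in 5 lists for copying, transcribing, processing and regulating mitochondrial DNA and RNA, 0 passed the test (limma) and 0 had an unadjusted p under 0.05, while 26 (49.1%) had replicate 1 above and replicate 2 below WT (53.8% of all rows), 14 (26.4%) the reverse (22.0%), 7 (13.2%) lay above WT in both (9.06%) and 6 (11.3%) below in both (15.1%). These shares lay near those of all rows. POLRMT was at 29.05, 70.7 and 60.8 RPM, and TFAM, which packages mitochondrial DNA and starts its transcription, at 69.2, 29.7 and 46.3 RPM, so these partners stood in opposite order. TFB2M was at 9.76, 13.2 and 8.49 RPM. LRPPRC, which stabilizes mitochondrial messages, was at 164, 54.7 and 120 RPM. PNPT1, of the mitochondrial RNA-degrading complex, was at 36.8, 16.5 and 26.0 RPM.

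In the list of 20 genes of mitochondrial RNA processing and modification, 8 had replicate 1 above and replicate 2 below WT (53.8% of all rows), 7 the reverse (22.0%), 3 lay above WT in both (9.06%) and 2 below in both (15.1%). ELAC2, which cleaves the 3′ ends of tRNAs, was at 52.6, 126 and 82.0 RPM, and HSD17B10, part of the enzyme that cleaves their 5′ ends, at 78.1, 215 and 120 RPM. POLG, the mitochondrial DNA polymerase, was at 52.6, 82.6 and 54.7 RPM, and the single-strand binding protein SSBP1 at 54.0, 79.7 and 53.1 RPM. Among general markers of mitochondria, citrate synthase (CS) was at 226, 352 and 322 RPM and the chaperone HSPD1 at 300.2, 214 and 267 RPM. Of the 17 genes in that list, 9 had replicate 1 below and replicate 2 above WT (22.0% of all rows) and 5 the reverse (53.8%). RNAs without a poly(A) tail, listed as a check on the library type, differed in level. RN7SL1 was at 1.27, 2.49 and 1.13 RPM, but HIST1H1C was at 17.9, 32.1 and 27.2 RPM. HIST1H2AC was also above RN7SL1 in every library. The check therefore did not settle the library type.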

How the data were processed

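The deposited table holds log2 values, 1 column per library, which the authors made from 1 alignment file per library, per the file headers. Reads were placed on GRCh38, per the submitters' processing notes. No aligner, counter, annotation release or strand setting is named, all being not given in the sources used here. In each library 2 to the power of a value is a whole multiple of 1 step (tolerance 0.05 of a read) for 99.98%, 99.93% and 99.97% of values above the floor, so values were read as log2 RPM and reads recovered. Rows without reads, listed at 0.9 of a read, were set to 0, and 3 reads set the limit of 0.0422, 0.0456 and 0.0442 RPM. Of the reads, 68.1%, 68.1% and 68.2% lay in listed rows. Left out were 92 rows that had no gene ID, or no read and an ID used again elsewhere, and 28 names turned into dates were restored.

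Rows with a mean of at least 1 RPM were compared on log2(RPM + 1) with limma 3.58.1 (R 4.3.3, trend in the variance), adjusted by Benjamini-Hochberg, threshold 0.05. Only 1 residual degree of freedom remains, so WT, a single library, is taken to vary as the CLDN6 libraries do. The variance of each gene comes almost wholly from the trend over all rows. The fit was tried on simulated libraries that varied far less than these do. That trial does not show its power to find changes here. Alternatives were other pseudocounts, filters and scalings, limma-voom, removal of a spline trend (5 degrees of freedom) and leaving out a replicate. All members were named; of each nuclear list, members with the highest mean, any 2-fold or more from WT in each CLDN6 library, and fixed genes. The members and lists were chosen with earlier results of these data known. Summaries used Python 3.11.15 and pandas 2.3.3.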

Additional observations from a re-analysis of the deposited data

How the results depend on the processing

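No paired analysis was possible, since 1 WT library stands against 2 CLDN6 libraries and no label pairs them. In every setting with a test, 0 mitochondrial genes were called, and their adjusted p (limma) ran from 0.99993 to 1. The count of all rows called fell from 1 to 0 without a filter on low values (146 rows at an unadjusted p under 0.05) and with limma-voom (8 rows), and was 1 elsewhere. Genes on the same side of WT in both CLDN6 libraries numbered 0 as reported, 1 under TMM-like scaling, 1 under RLE scaling, 2 with the GC and length trend removed and medians aligned, and 6 with the medians of all rows aligned. Genes 2-fold or more apart between the CLDN6 libraries numbered 3 as reported, 1 under TMM-like scaling and 1 under RLE scaling. They numbered 4 under quantile normalization (5171 of 14509 rows), 11 with the trend removed and 4 with the trend removed and medians aligned. With the medians of all rows aligned there were 0. The median fitted change, -0.04, ran from -0.09 to 0.07 over the settings with both replicates and from -0.36 to 0.18 with a replicate left out, and the cause was not tested. Without a replicate, the difference of the mitochondrial share from WT ran from -0.26 to 0.31 percentage points, and the log2 change of the MT-CO2 share from -0.21 to 0.54. No test is left then.

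Fitted changes near 0 altered sign with the scaling: under TMM-like scaling MT-ND1 (0.012), MT-CO1 (0.087), MT-ATP8 (0.00094), MT-CO3 (0.076) and MT-ND5 (0.049); under RLE scaling MT-ND1 (0.030), MT-CO1 (0.11), MT-ATP8 (0.019), MT-ATP6 (0.0052), MT-CO3 (0.095) and MT-ND5 (0.067); under quantile normalization MT-CO1 (0.079); with the medians of all rows aligned MT-CO1 (0.069), MT-CO3 (0.058) and MT-ND5 (0.030); with the trend removed MT-ATP8 (0.075) and MT-ND6 (-0.019); and with trend removed and medians aligned MT-CO1 (0.0035), MT-ATP8 (0.17) and MT-ND4L (0.041). With a replicate left out, the log2 changes ranged as follows: MT-ND1 -0.31 to 0.15, MT-ND2 -0.090 to 0.34, MT-CO1 -0.26 to 0.25, MT-CO2 -0.033 to 0.37, MT-ATP8 -0.38 to 0.20, MT-ATP6 -0.39 to 0.18, MT-CO3 -0.054 to 0.023, MT-ND3 -0.036 to 0.089, MT-ND4L -0.36 to 0.097, MT-ND4 -0.47 to 0.12, MT-ND5 -0.63 to 0.55, MT-ND6 -0.55 to 0.59, MT-CYB -0.65 to 0.37. The medians of the rRNA and tRNA genes could not be given, since none of the rows used holds them. Depth limits no member, the lowest having 6923 reads. The single WT library does.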
